A study of Homo sapiens with 45 samples.

Results

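Genes of B-cell receptor signalling, the pathway that carries the signal of bound antigen from the B-cell surface to the nucleus, were followed through siRNA silencing of transcription regulators in a lymphoma line. The list held 34 genes, taken by gene symbol. Of these, 33 had a probe annotated with that symbol alone, and 30 were above background, out of 19431 genes with such a probe and 8257 above background on the whole array. A gene with several probes was represented by its brightest one, and background was defined so that a probe passed where its log2 signal exceeded the array median by more than 0.5 on at least 3 arrays. PIK3AP1, an adaptor of the lipid kinase PI3K, had no probe listed under its symbol. The probes of CR2, a complement receptor that lowers the threshold for receptor signalling, of SH3BP2, an adaptor, and of BCL10, an adaptor that binds MALT1, were not above background.

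The B-cell receptor is a membrane immunoglobulin bound to a pair of signal chains, CD79A and CD79B. When antigen binds, SRC-family kinases phosphorylate these chains, SYK is recruited and, with the adaptor BLNK and the kinase BTK, activates the phospholipase PLCG2, which opens the calcium, protein kinase C, NF-kB and NFAT branches. CD22, CD72 and FCGR2B recruit phosphatases that restrain the signal, and germinal-centre lymphomas often depend on tonic signalling through SYK and PI3K.

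SUDHL6, a human diffuse large B-cell lymphoma line, received 80 pmol of SmartPool siRNA (several siRNAs against 1 transcript, mixed) by nucleofection, and total RNA was taken 20 hours later and hybridised to Illumina bead arrays. The first set of 30 arrays held siHMGA1, siFOXM1, siTFDP1 and siATF5 (3 arrays each), the non-target control siNT4 (4), and cells given a pair of pools, namely siHMGA1+siFOXM1 (3), siHMGA1+siTFDP1 (4), siHMGA1+siATF5 (3), siTFDP1+siATF5 (2) and siNT4+siNT4 (2). Titles carrying the letter A, which the labels do not explain, formed set A with 15 arrays. It held 3 arrays of each single pool (siNT4, siFOXM1 and siNFYB) and of each pair (siNT4+siNT4 and siNFYB+siFOXM1). All groups share the 1 cell line and nucleofection, none was left untreated, and no label says that replicates were separate cultures, so each p-value reflects only array-to-array spread, which may be technical. Among the targets, HMGA1 shapes chromatin by bending DNA, and FOXM1 drives mitotic genes. TFDP1 dimerises with E2F proteins, ATF5 is a bZIP protein of stress responses, and NFYB belongs to NF-Y, which binds CCAAT boxes. Each silenced group was compared with the control of its own set and number of pools.

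Of the germinal-centre B-cell markers with a probe, 10 of 11 were above background, against 1 of 11 T-cell markers (LCK), 2 of 9 myeloid markers (CD14 and FCGR3A) and 1 of 6 stromal and epithelial markers (VIM). The T-cell receptor genes CD3D, CD3E and CD3G were not above background, and neither was the germinal-centre B-cell marker PAX5 (median 6.94 in siNT4). CD79A and MS4A1, among the 10, are also on the gene list. Of 7 plasma cell markers 5 were above background, namely XBP1, SDC1, TNFRSF17, JCHAIN and MZB1. The array siTFDP1+siATF5 replicate 3 stood apart. It correlated with the others at a median of 0.69, against 0.97 to 0.99 for the other 44, and was left out of the fit by a rule on that correlation. The silencing targets HMGA1 (-1.55 log2), TFDP1 (-1.06) and ATF5 (-0.69) fell in their single silencings (adjusted p = 3.9e-12, 2.0e-09 and 0.0034 in limma). FOXM1 did not pass the threshold of 0.05 on adjusted p in either set (-0.27 and -0.19), and NFYB lay near the lower limit of signal, so its probe checks nothing. In siATF5, TFDP1 also fell by 1.86 (adjusted p = 5.7e-18). In the library labelled siHMGA1+siTFDP1 replicate 1, HMGA1 was 11.27, against 10.58 to 10.70 in the other 3, which goes against the HMGA1 part of its label. TFDP1 was 10.41 in that library, against 10.71 to 11.06 in the others. As a group, siHMGA1+siTFDP1 had -0.48 for HMGA1, which did not pass (adjusted p = 0.999 in limma). TFDP1 passed in that pair (-0.63, adjusted p = 0.0147). HMGA1 passed in siHMGA1+siFOXM1 (-1.06, adjusted p = 4.7e-05) and in siHMGA1+siATF5 (-1.39, adjusted p = 3.6e-08). FOXM1 did not pass in siHMGA1+siFOXM1 (-0.38) or siNFYB+siFOXM1 (-0.26), nor did ATF5 in siHMGA1+siATF5 (-0.095). TFDP1 had -0.76 on the 1 fitted array of siTFDP1+siATF5.

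NF-Y binds CCAAT boxes, so the 250 bases before each RefSeq transcription start (assembly GRCh38.p14) were searched for CCAAT, for the E2F-type letters TTCCCGC and TTGGCGC, for the forkhead-type TGTTTAC and for the CRE-type TGACGT bound by ATF and CREB proteins, on both strands. Of the 34 genes, 27 had a window in the RefSeq table, with 47 windows in all. CCAAT occurred in 11 of the 47 (23.4%), against 32% of all 35116 windows. The E2F-type letters occurred in 3 (6.38% against 7.81%), the CRE-type in 2 (4.26% against 7.1%) and the forkhead-type in 0, against 2.98% of all windows. In FYN the CCAAT overlaps an E2F-type match. Windows of genes the results turn on are shown with CCAAT in capitals. BLNK is shown as the 1 listed gene past the threshold between doubled and single controls, CD22, CD72 and FCRLA as receptor-family genes with a CCAAT, and CD79A as a receptor chain whose window holds none of the motifs. They lie at chr10:96271570-96271819 (BLNK, minus strand), chr19:35328937-35329186 (CD22, plus), chr9:35618414-35618663 (CD72, minus, before a start inside the RefSeq span of the gene), chr1:161706979-161707228 (FCRLA, plus) and chr19:41877029-41877278 (CD79A, plus). Each reads 5′ to 3′ toward the start site, and counted from it the CCAAT begins at position -118 in BLNK, -165 in CD22, -16 in CD72 and -106 in FCRLA.
BLNK: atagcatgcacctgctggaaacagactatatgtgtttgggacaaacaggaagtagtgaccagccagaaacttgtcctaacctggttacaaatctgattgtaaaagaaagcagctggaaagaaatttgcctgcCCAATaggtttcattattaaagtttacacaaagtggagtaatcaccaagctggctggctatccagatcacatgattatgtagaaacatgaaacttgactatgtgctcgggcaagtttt
CD22: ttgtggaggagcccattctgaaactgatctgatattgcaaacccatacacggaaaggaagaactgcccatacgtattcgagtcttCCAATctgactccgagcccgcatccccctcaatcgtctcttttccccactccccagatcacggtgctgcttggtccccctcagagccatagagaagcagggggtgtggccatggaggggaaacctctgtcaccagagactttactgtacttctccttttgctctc
CD72: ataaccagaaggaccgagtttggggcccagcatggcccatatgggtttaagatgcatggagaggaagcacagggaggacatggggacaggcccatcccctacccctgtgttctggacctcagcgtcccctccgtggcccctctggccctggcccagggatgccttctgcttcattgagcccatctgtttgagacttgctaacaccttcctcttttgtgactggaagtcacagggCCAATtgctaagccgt
FCRLA: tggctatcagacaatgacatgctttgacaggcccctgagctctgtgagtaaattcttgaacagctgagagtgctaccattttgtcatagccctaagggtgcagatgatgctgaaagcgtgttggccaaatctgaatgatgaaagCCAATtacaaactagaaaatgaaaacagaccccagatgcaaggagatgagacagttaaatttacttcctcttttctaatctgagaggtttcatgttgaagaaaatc
CD79A: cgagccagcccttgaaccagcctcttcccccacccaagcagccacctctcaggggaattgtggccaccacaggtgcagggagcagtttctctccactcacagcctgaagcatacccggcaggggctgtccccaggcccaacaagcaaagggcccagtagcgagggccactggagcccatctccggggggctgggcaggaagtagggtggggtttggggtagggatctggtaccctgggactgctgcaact
After siNFYB the log2 changes of the 4 genes with these boxes were 0.16 (BLNK), -0.09 (CD22), -0.02 (CD72) and 0.02 (FCRLA), and that of CD79A was 0.06, with 0 of the 5 past the threshold. A match of letters is a description and not a binding site.

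Both signal chains of the receptor were above background. Signals of different probes cannot be ranked against each other, so levels are given gene by gene. CD79A was between 13.75 and 14.15 log2 (median 13.81) on the 12 control arrays, and CD79B between 13.60 and 13.98 (median 13.74). Across the 11 silencing comparisons CD79A changed by -0.09 to 0.20 and CD79B by -0.04 to 0.14, with 0 past the threshold. Among the B-cell surface proteins, MS4A1 (CD20, a target of therapeutic antibodies) was at 11.50 to 12.29 in the controls, with changes from -0.28 in siATF5 to 0.27 in siNFYB. CD37, a tetraspanin of B cells, was at 10.07 to 10.59 and had a positive change in 11 of 11 comparisons. The lowest, 0.02 in siNFYB+siFOXM1, became -0.14 without replicate 2 of that group and -0.01 without siNT4+siNT4 replicate 3 of set A. Comparisons share control arrays, so counts of sign are not of independent changes. The share of all genes with 1 sign in all 11 was not counted.

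**Figure D1:**
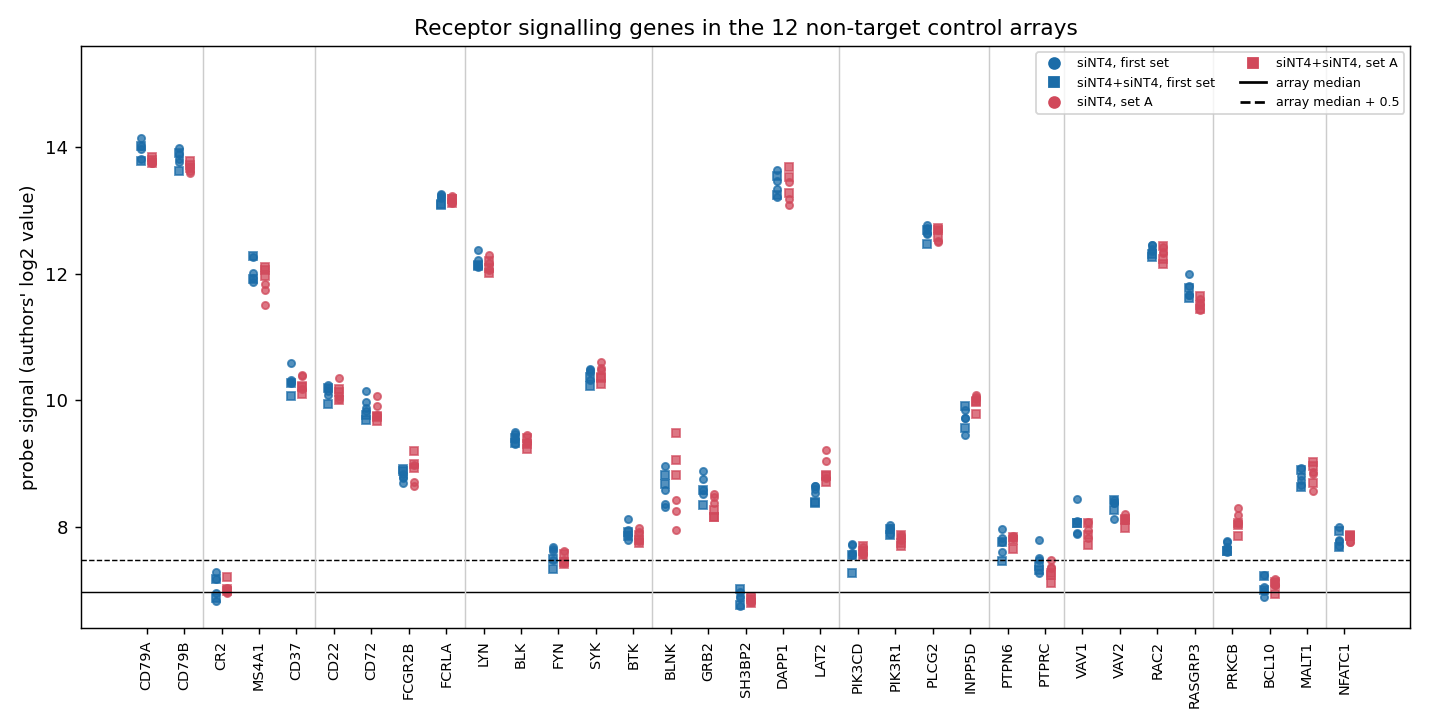
Log2 signal (vertical axis) of the brightest probe of 33 receptor signalling genes (horizontal axis, ordered by role) on the 12 non-target control arrays, 1 point per array, with the array median and the 0.5 margin above it as lines. CR2, SH3BP2 and BCL10 lie near the array median, CD79A and CD79B lie between 13.6 and 14.2, and heights of different genes are signals of different probes that cannot be ranked as transcript levels.

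The probes of CD22, CD72, FCGR2B and FCRLA were above background. CD22, a sialic acid-binding inhibitory receptor, was at 9.94 to 10.36 in the controls, and its changes ran from -0.14 to 0.17. CD72, which recruits the phosphatase PTPN6, was at 9.67 to 10.15, with changes from -0.04 to 0.36, the highest in siHMGA1+siFOXM1. FCGR2B, the inhibitory Fc receptor, was at 8.65 to 9.19, with changes from -0.12 to 0.22. It has a near-identical relative, FCGR2C, and whether the probe separates them was not tested. FCRLA, an intracellular Fc receptor-like protein of germinal-centre B cells, was at 13.09 to 13.26, and its changes ran from -0.02 to 0.22.

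The 5 tyrosine kinases were also above background. LYN, the SRC-family kinase that can start and restrain the signal, was at 12.01 to 12.37 and had changes from -0.10 to 0.11, a narrow range. BLK, another B-cell SRC-family kinase, was at 9.22 to 9.50, with a lowest change of -0.27 in siATF5. FYN was near the lower limit of signal, at 7.34 to 7.68, with changes from -0.14 to 0.36. SYK, which docks on the phosphorylated chains, was at 10.22 to 10.61 (median 10.40), with changes from -0.18 in siATF5 to 0.29 in siTFDP1+siATF5. BTK, the target of ibrutinib, was at 7.75 to 8.12 (median 7.87), close to the lower limit, and had a negative change in 9 of 11 comparisons, the lowest -0.27 in siHMGA1+siFOXM1 and the highest 0.14 in siTFDP1+siATF5.

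Of the adaptors, BLNK, which couples SYK to PLCG2 and BTK, varied most between arrays of the same group, with a pooled SD of 0.25 against 0.09 to 0.21 for the other 29 genes. It was at 7.95 to 9.48 in the controls. GRB2, which links receptors to RAS, was at 8.15 to 8.88 and had changes from -0.15 to 0.12. DAPP1, an adaptor recruited by PI3K products, was at 13.09 to 13.68, with changes from -0.17 to 0.24. LAT2, a transmembrane adaptor of B cells and mast cells, was at 8.37 to 9.22 and had changes from -0.13 to 0.16.

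In the lipid branch, PLCG2, the phospholipase that releases calcium and activates protein kinase C, was at 12.48 to 12.77, with changes from -0.09 to 0.21. PIK3CD, the leukocyte catalytic subunit of PI3K, was at 7.28 to 7.73, with changes from -0.16 to 0.32. PIK3R1, its regulatory subunit, was at 7.70 to 8.02, with changes from -0.09 to 0.14, and both lay close to the lower limit. INPP5D (SHIP1), the phosphatase that removes PI3K products, was at 9.45 to 10.09, and its changes ran from -0.24 in siATF5 to 0.30 in siHMGA1+siATF5. Of the tyrosine phosphatases, PTPN6 (SHP1) was at 7.46 to 7.96, with changes from -0.26 in siATF5 to 0.15 in siTFDP1. PTPRC (CD45), which activates SRC-family kinases, was near the lower limit, at 7.12 to 7.79, with changes from -0.21 to 0.15.

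Downstream, VAV1 and VAV2, guanine nucleotide exchange factors, were at 7.72 to 8.43 and 7.97 to 8.43, with changes of at most 0.20 in either direction. RAC2, the leukocyte RAC GTPase, was at 12.15 to 12.46 and had a positive change in 10 of 11 comparisons. RASGRP3, an activator of RAS that responds to diacylglycerol, had a lowest control value of 11.43 and a median of 11.63, with changes from -0.22 in siATF5 to 0.17. PRKCB, the protein kinase C of the NF-kB branch, was at 7.61 to 8.30, with changes from -0.04 to 0.38. MALT1, the protease of that branch, was at 8.57 to 9.03, with changes from -0.14 to 0.10. NFATC1, a calcium-activated transcription factor, was at 7.67 to 7.99, with changes from -0.29 in siATF5 to 0.29 in siTFDP1+siATF5. The former rests on 1 array, since NFATC1 was 7.89, 6.85 and 7.83 in siATF5, and without replicate 2 the change was 0.04. With 1 array left out, the highest change also turned negative for PIK3R1 (-0.02 without siFOXM1 replicate 2) and MALT1 (-0.02 without siNT4+siNT4 replicate 2). Smaller extreme changes also reversed, for CD37, FCRLA and PRKCB.

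Other settings gave calls named below, but in the main fit no listed gene passed the threshold in any of the 11 silencing comparisons. In each, the 95% confidence interval of the change lay within 1 log2 of 0 for all 30 genes. It lay within 0.5 for 24 to 29 of the 30 in 10 comparisons and for 19 in siTFDP1+siATF5, which has 1 array in the fit. Data were also simulated with independent normal noise of the spread of these arrays. In each comparison 100 genes were changed by 1 log2 and 100 by 0.5. Of those changed by 1 log2, 93% to 100% were recovered. For a change of 0.5 the share was 55% to 86%, and 21% in siTFDP1+siATF5. So many changed genes ease the adjusted threshold, so these shares are too high for comparisons with few calls. In the fit itself CD37 at 0.52 in siTFDP1 did not pass. Below, some genes of small p are said to have arrays that did not overlap. The share of all genes without overlap was not counted, so such separation adds no support.

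**Figure D2:**
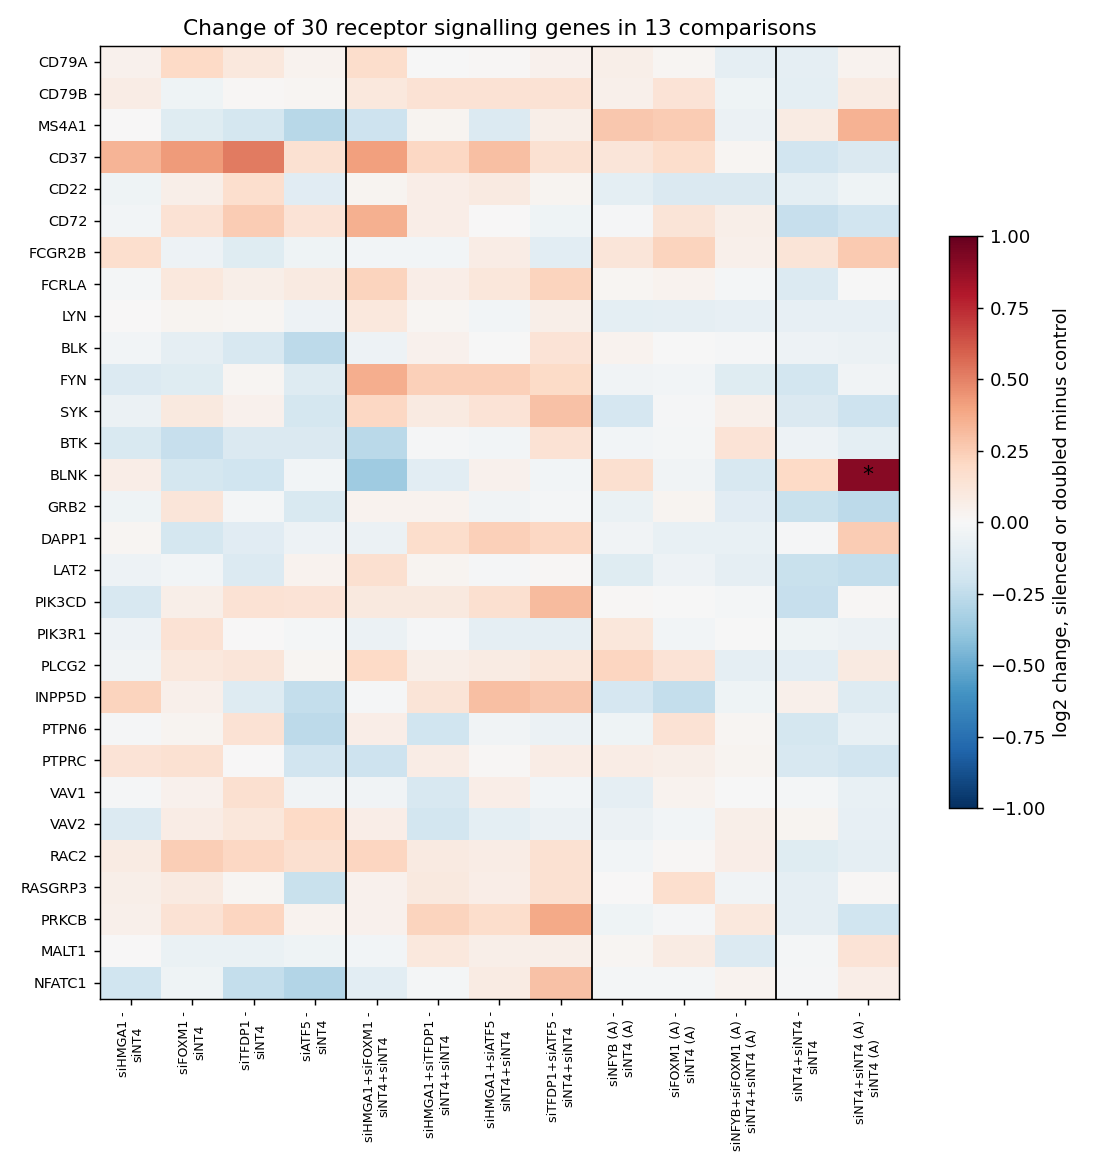
Log2 change of each of the 30 receptor signalling genes above background (rows, ordered by role) in 11 silencing comparisons and 2 comparisons of doubled with single control (columns), with red higher and blue lower than the control and a star where adjusted p was under 0.05. The 1 star is BLNK in siNT4+siNT4 of set A, and the CD37 row is positive in the 11 silencing columns, from 0.02 to 0.52.

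siTFDP1 gave 0 of 30 listed genes past the threshold, against 0.0848% of all genes (7 of 8257, 1 up and 6 down). At an unadjusted p under 0.05 there were 4 listed genes, all higher, against 12.7% of all genes in either direction. CD37 was 10.94, 10.66 and 11.05 in siTFDP1 and 10.29, 10.32, 10.27 and 10.59 in siNT4. All 3 silenced arrays lay above all 4 control arrays. The means were 10.88 ± 0.20 (SD, n = 3) and 10.37 ± 0.15 (SD, n = 4), and the difference was 0.52 log2 (SE 0.13, 95% interval 0.25 to 0.78, adjusted p = 0.0893). With a term for replicate number in the limma fit, CD37 passed (0.54, adjusted p = 0.0286), with 0.121% of all genes. The replicate numbers are not taken as pairing. RAC2 was 12.65, 12.65 and 12.56 in siTFDP1 and 12.46, 12.39, 12.35 and 12.45 in siNT4, a difference of 0.21 (SE 0.08, adjusted p = 0.309). Again the arrays did not overlap. CD72 had 0.25 (adjusted p = 0.388) with overlapping arrays. The median change of the 30 genes was 0.02, and of all genes -0.01. Receptor chains and early kinases stayed close to the control, with 0.11 for CD79A, 0.01 for CD79B, 0.04 for SYK and -0.14 for BTK.

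CD37 and RAC2 also had the smallest p in siFOXM1, which shares its siNT4 arrays with siTFDP1, so the comparisons are not independent. Past the threshold were 0 of 30 listed genes and 0% of all genes (0 of 8257). At an unadjusted p under 0.05 there were 3, all higher, against 10.5% of all genes. CD37 was 10.99, 10.72 and 10.66 in siFOXM1, a difference of 0.42 from siNT4 (SE 0.13, 95% interval 0.16 to 0.69, adjusted p = 0.294). With array weights on all 45 arrays in limma, CD37 passed (0.51, adjusted p = 0.0489), with 0.477% of all genes. RAC2 was 12.74, 12.67 and 12.58, a difference of 0.25 (SE 0.08, adjusted p = 0.298). For CD37 and RAC2 the arrays of siFOXM1 all lay above those of siNT4. Some arrays of both silencings had more bright probes than any control. Replicates 1, 2 and 3 had 26.2%, 28.6% and 25.1% of them over the margin in siFOXM1, and 27.1%, 25.9% and 26.1% in siTFDP1. Control arrays had 24.8% to 25.9%. A covariate for this percentage left both counts at 0, and the CD37 and RAC2 changes under it are not given here. CD79A was 14.11, 14.25 and 14.20, against 14.15, 13.97, 13.82 and 14.02 in siNT4. These arrays overlap, and the difference was 0.20 (SE 0.09, adjusted p = 0.428). The other core members had -0.04 (CD79B), 0.10 (SYK) and -0.23 (BTK), and the median of the 30 was 0.06, against -0.01 for all genes.

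**Figure D3:**
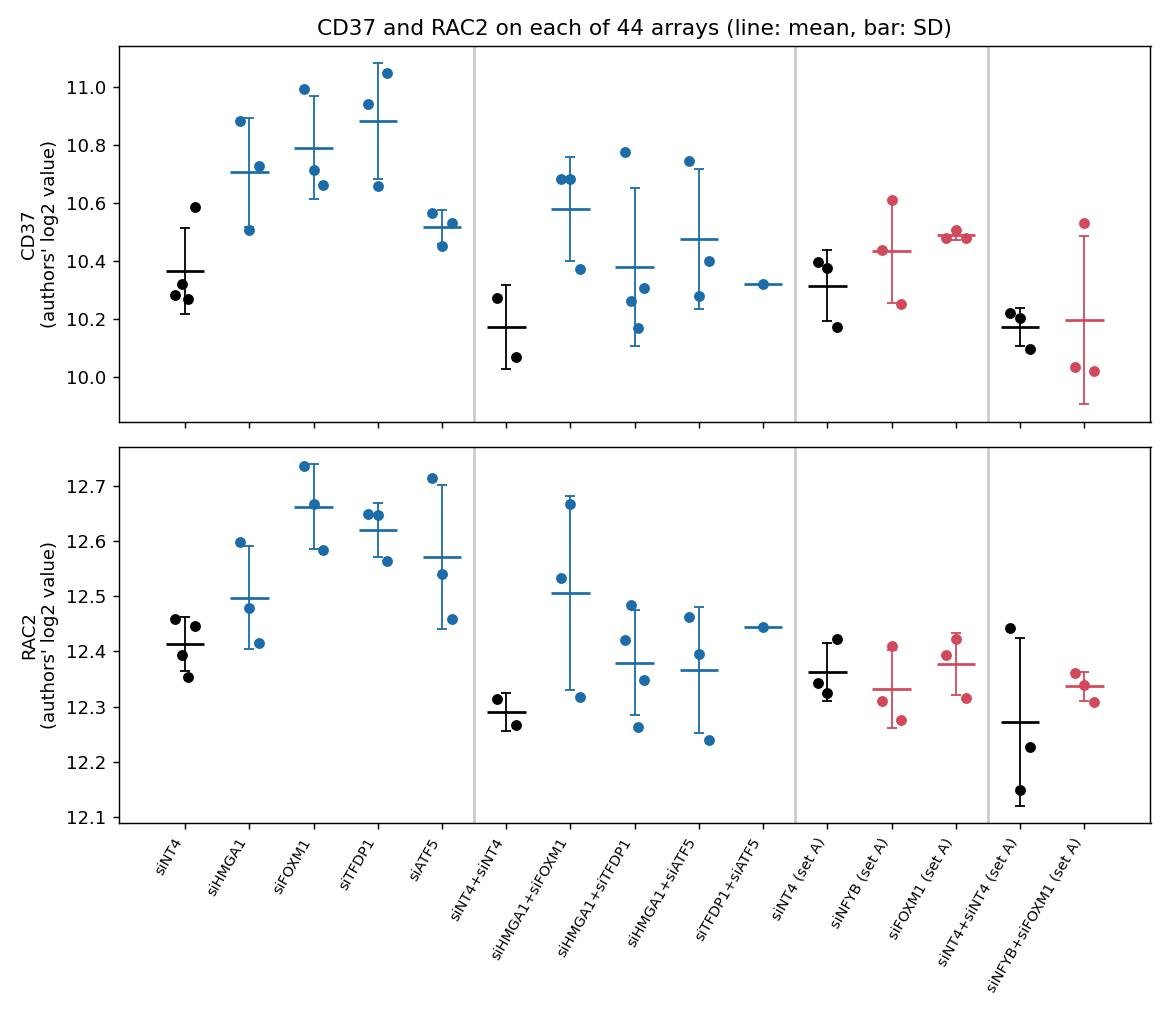
Log2 signal of CD37 (top) and RAC2 (bottom) on each of the 44 arrays of the fit (points), by group, with the group mean as a line and the SD as a bar, controls in black, silenced groups of the first set in blue and of set A in red. CD37 in siTFDP1 runs from 10.66 to 11.05, above the siNT4 arrays at 10.27 to 10.59. In set A, CD37 of siFOXM1 lies above siNT4, while siNFYB and siNFYB+siFOXM1 overlap their controls.

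After siHMGA1, 0 of 30 passed, against 0.0121% of all genes (HMGA1 alone). At an unadjusted p under 0.05 there was 1, CD37, against 2.2% of all genes. CD37 was 10.88, 10.51 and 10.73, and the lowest of these lies below siNT4 replicate 4. The difference was 0.34 (SE 0.13, 95% interval 0.08 to 0.60, adjusted p = 1.0). FCGR2B had 0.17 and INPP5D 0.22 (adjusted p = 1.0 for each), and both overlapped the control. CD79A (0.04), CD79B (0.08), SYK (-0.06) and BTK (-0.15) lay within the spread of the arrays, and the median of the 30 was -0.01, as for all genes.

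siATF5 moved the most genes of any silencing, 3.94% of all genes (325 of 8257, 116 up and 209 down), and 0 of the 30 listed genes were among them. At an unadjusted p under 0.05 there were 5, all lower, against 22.7% of all genes. The phosphatase PTPN6 was 7.57, 7.45 and 7.55 in siATF5, below all 4 siNT4 arrays at 7.96, 7.75, 7.61 and 7.82, a difference of -0.26 (SE 0.10, adjusted p = 0.103). BLK was 8.96, 9.24 and 9.25, below all siNT4 arrays at 9.31 to 9.50, a difference of -0.27 (SE 0.10, adjusted p = 0.124). MS4A1 was 11.66, 11.59 and 11.96, and overlapped the control at 11.87 to 12.26, with -0.28 (SE 0.11, adjusted p = 0.128). RASGRP3 (-0.22) and SYK (-0.18) were the others of the 5. In siATF5 both ATF5 (-0.69) and TFDP1 (-1.86) fell, so these changes cannot be assigned to either. By role, 5 of 5 tyrosine kinases had a negative change, from -0.27 to -0.05, and so had both tyrosine phosphatases, while 42.1% of all genes had a positive one. The kinases were also 5 of 5 negative in siFOXM1 of set A, and kinases and phosphatases alike were all negative in siNT4+siNT4 against siNT4 of each set, with no silencing. SYK was 10.30, 10.12 and 10.35, against 10.44, 10.33, 10.50 and 10.48 in siNT4. BTK was 7.80, 7.80 and 7.75, a difference of -0.15 (SE 0.12). CD79A had 0.03, CD79B 0.02 and LYN -0.05. On siATF5 replicates 1 and 2, 29.4% and 30.6% of probes were above background, and on replicate 3 25.4%, against 24.8% to 25.9% on the control arrays. With that share as a covariate, the count stayed at 0, and the changes were -0.38 for PTPN6, -0.11 for BLK and -0.11 for MS4A1. Without siATF5 replicate 3 the count was 3, against 18% of all genes, namely MS4A1 (-0.39, adjusted p = 0.0232), RASGRP3 and NFATC1. After quantile normalization it was 1, against 3.34% of all genes, with PTPN6 at -0.40 (adjusted p = 0.0131).

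The 4 pairs of the first set share the 2 siNT4+siNT4 arrays, so they are not independent of each other. In siHMGA1+siFOXM1, 0 of 30 passed, against 0.0121% of all genes, and 6 had an unadjusted p under 0.05, all higher, against 8.49% of all genes. FYN was 7.70, 7.92 and 7.71, against 7.34 and 7.50 in siNT4+siNT4, a difference of 0.36 (SE 0.14, adjusted p = 0.504). CD37 was 10.68, 10.68 and 10.37, against 10.27 and 10.07, a difference of 0.41 (SE 0.16, adjusted p = 0.504). CD72 was 10.24, 10.16 and 9.86, against 9.77 and 9.69, a difference of 0.36 (SE 0.15, adjusted p = 0.512). In these genes, named for their small p, all 3 silenced arrays lay above both controls. With 3 against 2 arrays such separation can easily arise by chance, and its share among all genes was not counted. SYK was 10.48, 10.55 and 10.47, against 10.22 and 10.36, a difference of 0.21 (SE 0.10, adjusted p = 0.563). BTK was 7.28, 7.55 and 8.01, spread around its controls at 7.85 and 7.92, and CD79A had 0.18 and CD79B 0.11. The median of the 30 was 0.04, against 0.01 for all genes.

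In siHMGA1+siTFDP1, 0 of 30 passed, against 0.0121% of all genes, and 0 had an unadjusted p under 0.05, against 3.35%. FYN (0.24), PRKCB (0.22) and PTPN6 (-0.20) had the smallest p (adjusted p = 1.0 for each). CD37 was 10.78 in the library labelled replicate 1 and 10.26, 10.17 and 10.31 in the other 3, which lie beside the controls at 10.27 and 10.07. That library was the one whose HMGA1 goes against its label, and without it the count remained 0. CD79A had -0.01, CD79B 0.14, SYK 0.09 and BTK -0.01 in this pair.

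In siHMGA1+siATF5 the counts were 0 of 30, against 0.0121% of all genes, and 0 at an unadjusted p under 0.05, against 4.4%. INPP5D was 10.01, 9.95 and 10.15, above its controls at 9.55 and 9.91, a difference of 0.30 (SE 0.15). CD37 had 0.30 and FYN 0.24 (adjusted p = 1.0 for each of the 3). Of the 3 genes of smallest p in siATF5, PTPN6 had -0.03 here and MS4A1 -0.14, and the BLK mean was 9.36 in both groups. ATF5 itself had -0.095 in this pair (adjusted p = 1.0), against -0.69 in siATF5, and the difference between siATF5 and the pair was not tested. CD79A had 0.01, CD79B 0.14, SYK 0.14 and BTK -0.03. The median of the 30 was 0.06, against -0.01 for all genes.

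siTFDP1+siATF5 rests on replicate 2 alone, and its error is borrowed from the spread of the other groups. It gave 0 of 30, against 0% of all genes, and 2 at an unadjusted p under 0.05, against 3.12%. SYK was 10.58, a difference of 0.29 (SE 0.13), and PRKCB was above its controls, at 7.62 and 7.62, by 0.38 (SE 0.17). PIK3CD had 0.32 (adjusted p = 1.0 for each of these). ATF5 had -0.18 in this pair (adjusted p = 1.0). CD79A had 0.05, CD79B 0.14 and BTK 0.14. Replicate 3, which was left out, was above all other arrays in 7 of the 33 genes with a probe and below all others in 21. MS4A1 was 9.14 there against 12.16 in replicate 2, SYK 8.84 against 10.58, and CD79A 15.59 against 13.94. With that array in the fit, 13 of 30 listed genes passed, against 53.3% of all genes. Of its probes 44.5% were above background.

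In set A, siNFYB gave 0 of 30, against 0% of all genes, and 2 at an unadjusted p under 0.05, both higher, against 1.71%. PLCG2 was 12.73, 12.71 and 12.92, against 12.69, 12.52 and 12.50 in siNT4, a difference of 0.21 (SE 0.09, adjusted p = 1.0). MS4A1 was 11.97, 11.93 and 11.98, against 11.84, 11.50 and 11.73, a difference of 0.27 (SE 0.12, adjusted p = 1.0). In both genes the silenced arrays lay above the controls. With no silencing, MS4A1 was 12.11, 12.06 and 11.96 in siNT4+siNT4 of set A, 0.35 above the same siNT4 arrays. Both MS4A1 changes rest on the same siNT4 arrays, so they are not independent, and the cause of either was not tested. With the mean of probes per gene, the MS4A1 change in siNT4+siNT4 of set A was -0.016. SYK was 10.23, 10.39 and 10.46, below its controls at 10.48, 10.61 and 10.50, a difference of -0.17 (SE 0.09, adjusted p = 1.0). CD79A (0.06), CD79B (0.05) and BTK (-0.02) lay close to 0, and the median of the 30 was -0.02, against -0.01 for all genes.

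siFOXM1 of set A, set against the same siNT4 arrays, gave 0 of 30, against 0% of all genes, and 2 at an unadjusted p under 0.05, against 2.4%. FCGR2B had 0.22, MS4A1 0.26 and INPP5D -0.24 (adjusted p = 1.0 for each). MS4A1 was 11.96, 12.03 and 11.86, above its 3 controls, the same siNT4 arrays that siNT4+siNT4 of set A exceeded by 0.35. CD37 was 10.48, 10.51 and 10.48, above its controls at 10.40, 10.38 and 10.17, with 0.17 (SE 0.14, adjusted p = 1.0). CD79A had 0.02, CD79B 0.14, SYK -0.01 and BTK -0.02. In siNFYB+siFOXM1 the counts were 0 of 30, against 0.0121% of all genes, and 0 at an unadjusted p under 0.05, against 2.75%. CD22 (-0.14), MALT1 (-0.14) and BTK (0.14) had the smallest p there (adjusted p = 1.0 for each). CD79A had -0.09, CD79B -0.04 and SYK 0.05.

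siFOXM1 was given in both sets, so the changes could be compared between them, although FOXM1 itself passed the threshold in neither. The difference of the changes, set A minus first set, passed for 0 of 30 listed genes, against 0% of all genes, and 1 had an unadjusted p under 0.05, against 4.92%. That was MS4A1, at -0.12 in the first set and 0.26 in set A, a difference of 0.38 (SE 0.16, 95% interval 0.05 to 0.71, adjusted p = 0.96). In the siNT4 controls alone MS4A1 differed by -0.32, set A minus first set, with no overlap of arrays. RAC2 was 0.25 and 0.01 in these sets, a difference of -0.23 (SE 0.12, adjusted p = 0.96). Intervals lay within 1 log2 of 0 for 30 genes and within 0.5 for 21.

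The non-target arrays allow comparisons without silencing. In the first set, siNT4+siNT4 against siNT4 gave 0 of 30, against 0% of all genes, and 2 at an unadjusted p under 0.05, against 3.25%. LAT2 was 8.38 and 8.37, below its siNT4 arrays at 8.59, 8.53, 8.64 and 8.64, a difference of -0.22 (SE 0.10, adjusted p = 1.0). In set A the same comparison gave 1 of 30, against 0.0727% of all genes (6 of 8257), and 6 at an unadjusted p under 0.05, 3 up and 3 down, against 8.53%. The gene past the threshold was BLNK (chromosome 10, 96189171 to 96271569, minus strand, GRCh38.p14), which rose by 0.91 log2 (SE 0.18, 95% interval 0.54 to 1.28, adjusted p = 0.0282). It was 8.81, 9.06 and 9.48 in siNT4+siNT4 and 8.42, 8.25 and 7.95 in siNT4, with no overlap. The means were 9.12 ± 0.34 and 8.20 ± 0.24 (SD, n = 3 each). BLNK has 1 probe. The call was lost without siNT4+siNT4 replicate 2 or 3, or without siNT4 replicate 2 or 3, where the change was 0.73 to 0.94 and adjusted p was 0.0737 to 0.283. It was also lost with all 45 arrays, without the filter on dim probes and with the mean of probes per gene. The other genes past the threshold were NACA4P, TUBA3D, ATP2B1, ADI1 and HSPA6, all higher. MS4A1 had 0.35 in this comparison and did not pass.

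**Figure D4:**
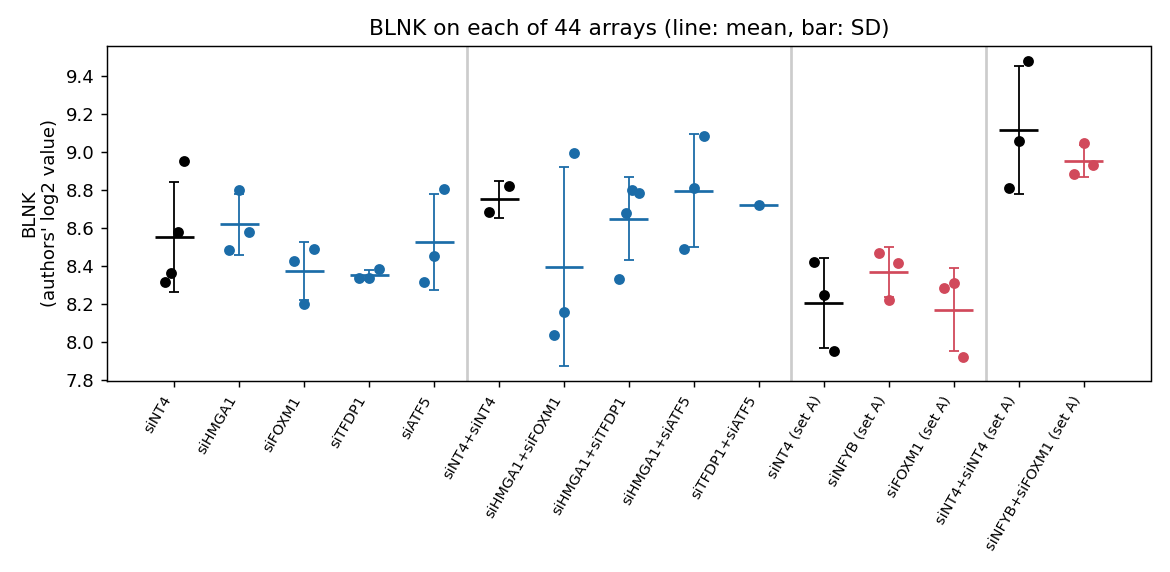
Log2 signal of BLNK on each of the 44 arrays of the fit (points) by group, with the group mean as a line and the SD as a bar, controls in black, silenced groups of the first set in blue and of set A in red. In set A the 6 arrays given a pair of pools lie at 8.81 to 9.48 and the 9 given 1 pool at 7.92 to 8.47, while in the first set these ranges overlap.

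BLNK was also at 8.88, 9.05 and 8.93 in siNFYB+siFOXM1 of set A, against 8.47, 8.22 and 8.42 in siNFYB and 8.28, 8.31 and 7.92 in siFOXM1. The 6 arrays of set A given a pair of pools thus ran from 8.81 to 9.48 (median 8.99), above the 9 given 1 pool, at 7.92 to 8.47 (median 8.28). In the first set the ranges overlapped, at 8.03 to 9.09 (median 8.72, 13 arrays) and 8.20 to 8.95 (median 8.44, 16 arrays). Tests added after these values were seen, each with 0% of all genes past the threshold, did not call BLNK. The pair against siNFYB gave 0.59 (SE 0.18, adjusted p = 0.762) and against siFOXM1 0.78 (SE 0.18, adjusted p = 0.177). The doubled against single control change was 0.20 in the first set, and the difference of set A from it was 0.71 (SE 0.27, 95% interval 0.18 to 1.25, unadjusted p = 0.0104, adjusted p = 1.0).

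Controls of the 2 sets were compared after their values were seen, and here set and batch cannot be told apart. siNT4 of set A differed from siNT4 of the first set for 2 of 30 listed genes, against 3.17% of all genes (262 of 8257). PRKCB was 8.30, 8.18 and 8.06 in set A and 7.61, 7.68, 7.77 and 7.77 in the first set, a rise of 0.47 (SE 0.11, adjusted p = 0.0051). LAT2 was 9.04, 9.22 and 8.77 in set A and 8.59, 8.53, 8.64 and 8.64 in the first set, a rise of 0.41 (SE 0.09, adjusted p = 0.0034). The sets did not overlap in either gene. The doubled controls had the same order, with LAT2 at 8.80, 8.81 and 8.70 against 8.38 and 8.37, and PRKCB at 7.85, 8.06 and 8.03 against 7.62 and 7.62. A second probe of each gave a smaller difference, 0.17 for LAT2 and 0.16 for PRKCB. PRKCB did not pass without siNT4 replicate 1 of set A (adjusted p = 0.0652), nor LAT2 without replicate 2 (0.104). Both calls were lost with all 45 arrays in the fit (adjusted p = 0.23 for LAT2 and 0.26 for PRKCB). Other listed genes did not pass but also had siNT4 arrays without overlap between the sets. Both receptor chains were lower in set A, CD79A by -0.23 (adjusted p = 0.188) and CD79B by -0.23 (adjusted p = 0.159). So were MS4A1 (-0.32), RASGRP3 (-0.27) and PIK3R1 (-0.13), while INPP5D was higher (0.36). The doubled control was below the single one in both sets for 17 of 30 listed genes, against 35.5% of all genes, and above it in both for 3, against 22.5%.

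Second probes gave a check that does not share the first probe. Of the 30 genes, 11 had a second probe above background, and 72 of 121 changes had the same sign in both probes. CD79B had the same sign in 11 of 11 comparisons, with a median distance of 0.03 between the probes. CD37 had it in 10 of 11, and its second probe also gave its highest change in siTFDP1. CD79A, MALT1 and PTPRC had it in 8 and DAPP1 in 6. LAT2 and PRKCB had it in 5, MS4A1 and PIK3R1 in 4 and FCGR2B in 3, so in these 5 genes the direction differed between probes in most comparisons. For MS4A1 the probes lay a median of 0.41 apart, the most among the 11 genes.

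**Figure D5:**
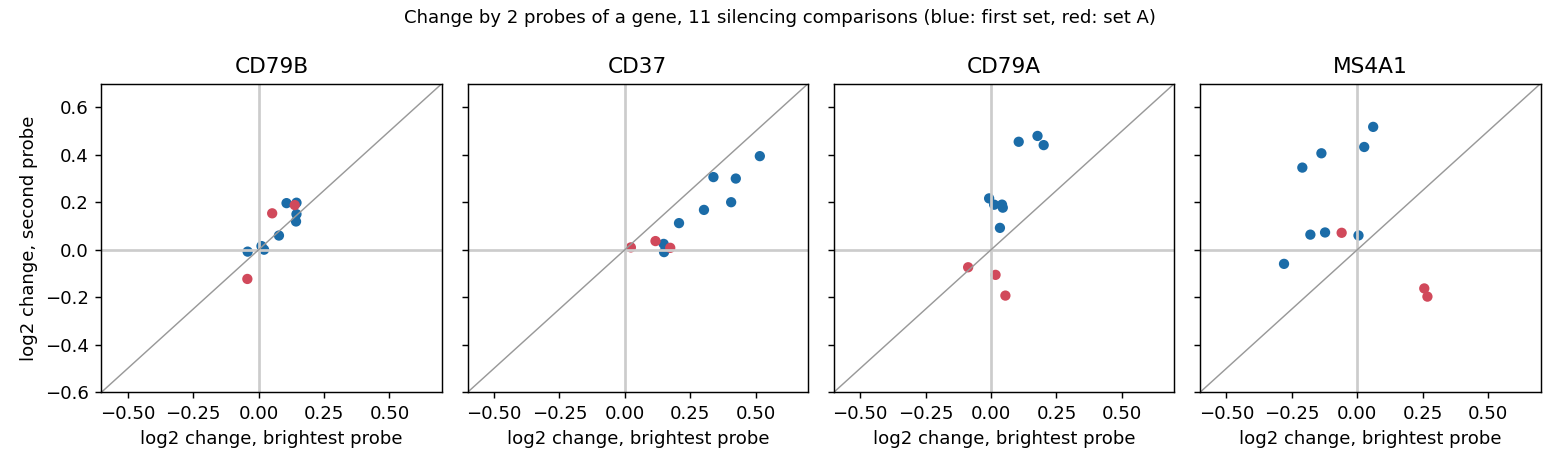
Log2 change by the second probe (vertical axis) against the brightest probe (horizontal axis) of CD79B, CD37, CD79A and MS4A1, 1 point for each of 11 silencing comparisons, first set in blue and set A in red, with the line of equal change. The probes have the same sign in 11, 10, 8 and 4 of 11 comparisons in these genes.

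Other genes of the pathway, from the coreceptor CD81 to calcineurin, and genes induced by receptor signalling were listed for comparison. Of 93 listed, 77 had a probe and 51 were above background. In the 11 silencing comparisons 1 call was made among them, in siATF5, where 3.94% of all genes passed. PIK3CB, a catalytic subunit of PI3K, was 6.88, 6.82 and 7.22 in siATF5 and 7.29, 7.22, 7.32 and 7.55 in siNT4, with an adjusted p of 0.0457. It was not above background on any of the 3 siATF5 arrays and on 3 of the 4 siNT4 arrays, so no size is given. Of the 17 induced genes, such as the early growth response gene EGR1, 8 were above background, and 0 passed in any comparison.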

How the data were processed

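The authors' deposited values are log2 signals of Illumina bead-array probes, 1 column for each of 45 arrays. How background was corrected and arrays normalized was not given in the sources used here. A second deposited table of unprocessed intensities, with 90 per-sample columns named only by chip and position, was not used. Of 45013 probes, 28746 had 1 gene symbol, 8 several and 16259 none listed. The brightest probe stood for each gene, and 8257 genes above background were tested.

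In R 4.3.3, limma 3.58.1 (lmFit, contrasts and eBayes) fitted a group-means model over 44 arrays, with Benjamini-Hochberg adjustment over all 8257 genes and a threshold of 0.05. Arrays with a median correlation under 0.9 were left out. Each p and adjusted p in the text is from this fit unless another setting is named. The method was tested on simulated data. The number of arrays limits the precision. The members and lists were chosen with earlier results of these data known. Array values were given for genes past the threshold and for some of the 3 genes of smallest p, and, in each silencing comparison, at least the changes of CD79A, CD79B, SYK and BTK as the receptor core. The comparison of controls between sets, the added tests of BLNK and the check of each gene's extreme changes with 1 array left out were chosen after seeing the data. Alternatives covered all 45 arrays, array weights, quantile normalization, the mean of probes, the filter, an intensity trend, the set, the share of probes above background, the replicate block and each array left out. Sequences are from RefSeq, and all 34 genes matched it by symbol.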

Additional observations from a re-analysis of the deposited data

Results flagged for a closer look

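The 30 genes were examined in the groups of 4 arrays, siNT4 and siHMGA1+siTFDP1, which makes 60 sets of values. In 6 of the 60 an array lay far from the others, where chance gives about 1 in 20. Each value here is the gap to the nearest array over the group's range. CD37 in siNT4 replicate 4 had 0.835, at 10.59 against 10.27 to 10.32. The other 5 were in siHMGA1+siTFDP1. CD72 in the library labelled replicate 1 had 0.917, at 10.27 against 9.61 to 9.66, and LAT2 there had 0.928, at 8.49 against 8.38 to 8.39. LYN in replicate 2 had 0.918, at 12.35 against 12.07 to 12.09. BLK in replicate 2 had 0.936, although it was 9.38 against 9.41. PRKCB in replicate 4 had 0.838, at 7.71 against 7.87 to 7.90. On siTFDP1+siATF5 replicate 3, which is outside the fit, 44.5% of probes were above background, against 24.8% to 25.9% on the control arrays.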

How the results depend on the processing

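With all 45 arrays, the listed genes past the threshold numbered 13 in siTFDP1+siATF5 (53.3% of all genes), with a median change of -0.28, and SYK (-0.58), PRKCB (-0.27) and PIK3CD (-0.23) reversed. The count was then 0 for siNT4+siNT4 of set A and 0 for siNT4 between sets. Array weights on 45 arrays gave 1 in siFOXM1 (CD37, 0.51, adjusted p = 0.0489, with 0.477% of all genes), 4 for siNT4 between sets (5.92%), and the same median of -0.28 and reversed values of -0.58, -0.27 and -0.23 in siTFDP1+siATF5. Quantile normalization gave 1 in siATF5 (3.34%). The mean of probes gave 0 for siNT4+siNT4 of set A (BLNK adjusted p = 0.068) and 1 for siNT4 between sets (3.52%), and reversed FCGR2B in siFOXM1 of set A (-0.015) and MS4A1 in siNT4+siNT4 of set A (-0.016) and between sets (0.0033). Without a filter on dim probes the count was 0 for siNT4+siNT4 of set A, and with arrays of the same set only it was 2 (BLNK and MS4A1, with 2.05%). Leaving out each array gave 0 to 3 in siATF5, 0 to 1 in siNT4+siNT4 of set A, 1 to 2 for siNT4 between sets and 0 in the other comparisons. The cause of these shifts was not tested. The intensity trend, the stricter filter, all non-target arrays as control and a covariate for each array's share of bright probes changed no count. The set differences could not be fitted with arrays of the same set only, the block was not run for siNT4 between sets, and siTFDP1+siATF5 could not be fitted without its replicate 2.

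With the replicate block, siTFDP1 had 1 listed gene past the threshold (CD37, 0.54, adjusted p = 0.0286), with 0.121% of all genes. Of 32 same-numbered pairs, 14 correlated over 0.1 (range -0.27 to 0.39), and in no comparison with 3 pairs did all. In siTFDP1 the pairs ran from 0.05 to 0.28. Both of the 2 pairs exceeded 0.1 in siHMGA1+siFOXM1 (0.14 and 0.28) and in siNT4+siNT4 of the first set (0.16 and 0.22). By the rule on 3 pairs the numbers are not taken as pairing, although this does not exclude it.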
